A study of Arabidopsis thaliana with 18 samples.

Results

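The comparison described here sets the transcript response of light-grown Arabidopsis thaliana cell suspension cultures (ACSC, Columbia ecotype) to Rose Bengal (RB) against the mean response to a pair of weaker photosensitizers, MV and Indigo Carmine (IC). For each of 22746 probe sets, the signal with RB minus that of its own control was reduced by the mean signal with MV and IC minus that of their control. All 22746 probe sets of the ATH1 array that are not AFFX controls were members, and 15 of the 18 arrays of the series entered the difference, 3 in each of 5 groups. RB, MV and IC were each given at 0.5 μM. The treatment time in the labels is 30 min in high light, next to a dark alternative that is not assigned to any array. The labels give 50 μE m–2 s–1 for the growth of all cultures. The study's text describes the RB transcripts as those of cells treated in the light. It calls its light conditions low to medium, with a higher irradiance for treatment, and acclimation before it, than the labels give for growth. One untreated control group is titled as the control of RB and of the H2O2 arrays and the other as the control of MV and IC. The other 3 arrays held cultures given 500 μM H2O2 and entered only the estimate of the spread. The labels spell MV as Methyl Violet and the study's text as Methylene Violet, which are different compounds, so no structure is given for it. ACSC are 1 cultured line of dividing cells with chloroplasts and not a leaf, and levels cannot tell fewer responding cells from less RNA per cell.

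Photosensitizers absorb light and pass the energy to oxygen, which yields singlet oxygen (1O2), a short-lived and highly reactive species. In plants 1O2 is made mainly at photosystem II, and besides oxidizing lipids and proteins it changes nuclear gene expression and can start programmed cell death. RB is a halogenated xanthene dye that, according to the study, accumulates inside chloroplasts, whereas MV was seen at the chloroplast envelope and IC, a sulphonated indigo, gave no fluorescence in the cells, from which the study could not tell poor uptake from loss in washing. The same work describes MV and IC as weaker 1O2 sources than RB, so equal doses need not mean equal amounts of 1O2. The comparison asks which transcripts responded to RB beyond what an equal dose of the other dyes gave.

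The response to RB exceeded or fell short of that to the weaker dyes in 143 probe sets (limma with Benjamini–Hochberg adjustment over all probe sets, adjusted p under 0.05), which is 0.629% of those tested. Of these, 102 were higher (0.448%) and 41 lower (0.18%). This split depended on the scaling, with 93 higher and 86 lower after another quantile normalization and 80 higher and 85 lower with array medians subtracted. Differences are on the log2 scale throughout, so that 1 stands for a doubling. Sizes ran from 0.70 to 4.93, 126 were over 1 (0.554%), and the 15 probe sets with a size over 3 all lay on the higher side. Among the 102 higher calls the median effect of RB was 1.91 and that of the dyes was -0.05, and among the 41 lower calls the medians were -1.18 and -0.04. The RB effect alone was called in 673 probe sets (2.96%). The dyes' own mean effect was called in 0 of the 22746 probe sets, and so in none of the 143. Among the 143 it stayed between -0.53 and 0.45. In all 143 the 3 RB arrays lay outside the range of their control arrays. The RB effect is a term of the difference that chose these calls, so such a separation was favoured. The 6 dye arrays lay all above or all below the range of theirs in 4, a stricter condition than for 3 arrays. Neither count was made over all probe sets. The median signal over all arrays was 6.02 for the higher calls and 8.81 for the lower calls, compared with 5.09 for all probe sets.

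**Figure D1:**
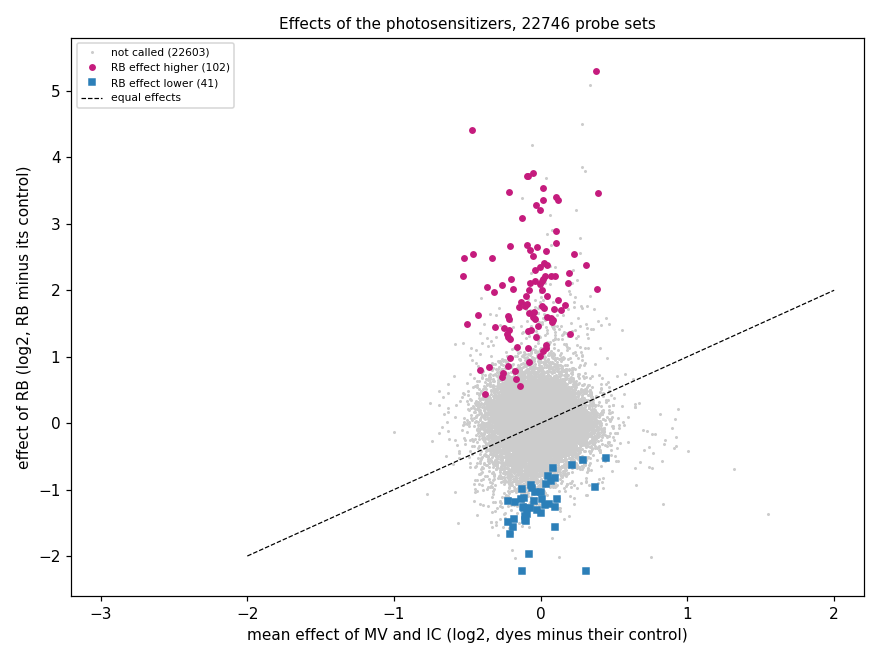
Effect of RB (vertical axis, log2, RB minus its control) against the mean effect of MV and IC (horizontal axis, log2, dyes minus their control) for 22746 probe sets. The 102 higher calls (pink circles) and the 41 lower calls (blue squares) spread along the vertical axis, while their horizontal positions stay between -0.53 and 0.45, and the dashed line marks equal effects.

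The arrays limit these counts. A 95% interval typically reached 0.519 to either side of a difference (median over all probe sets), and 0.339 to either side of the dyes' effect alone. The control groups differed from each other in 1698 probe sets (7.47%), so a gene's difference from its own control is not the same as a difference between treated cultures, and where this matters the control values are given. Replicates scattered more in the control of RB, with a root mean square distance to their mean of 0.302 to 0.358 per array, compared with 0.192 to 0.238 among the control arrays of MV and IC. With the replicate number of the labels as a block the count rose to 560 probe sets (2.46%, 346 higher, 214 lower), among them all 143. Of the genes named below as not passing, 11 passed with the block, namely MPK3, ERF104, ERF105, LOX4, AOS, PAD4, WRKY30, CNX2, At1g54050, GolS1 and At2g42300. Of the 143, 71 were called in each of the 15 fits that left out 1 array. Between 83 (without control replicate 1 of MV and IC) and 136 (without control replicate 3 of RB) of the 143 remained in a single such fit, and the number of these fits in which a gene was called is given below where it was 5 or fewer. Gene names came from the platform annotation for 73 of the 143 calls and for the other 70 from the study's own tables of transcripts changed by RB or H2O2. Within the first source 0.521% of 14016 probe sets were called and within the second 7.82% of 895, so a list of genes that reached its names through the second source is not independent evidence of its direction. Listed loci that neither source names do not count as measured, so the measured members of a list lean towards transcripts already found changed. Over all probe sets 0.448% were called higher and 0.18% lower, and with the block 346 and 214 of 22746. Counts of called list members below stand beside these.

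The list of ethylene response factors (ERFs) and related transcription factors of the AP2 family, which act in ethylene, wounding and drought responses, held the 2 largest differences among the calls. These were DREB2A, one of the related factors, and ERF13. ERF5 measured 4.63, 4.44 and 4.27 in the control arrays of RB and 7.85, 7.98 and 7.61 with RB. In the control of MV and IC it measured 3.86, 3.79 and 3.56, with MV 3.88, 3.48 and 4.19, and with IC 4.16, 3.69 and 3.71. No RB array overlapped any other group, and the MV and IC arrays overlapped their control. The difference was 3.25 (standard error 0.234, 95% interval 2.75 to 3.74, adjusted p = 4.66e-06), or 9.50-fold, and it was called in each of the 15 fits. DREB2A, which activates drought- and heat-responsive genes, measured 4.48, 4.04 and 4.94 in its control and 10.09, 8.84 and 10.46 with RB. In the set of MV, IC and their control this gene started higher, at 5.98, 7.69 and 6.62 in the control, 7.15, 8.67 and 7.96 with MV and 5.38, 7.42 and 6.26 with IC. Its RB arrays were the highest of all groups, its difference of 4.93 (30.4-fold, standard error 0.72, adjusted p = 0.00363) was the largest of the 143, and the 2 controls differed by 2.28 in the other direction, and RB compared directly with the dyes differed by 2.65.

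ERF13 followed with 4.89 (29.6-fold, standard error 0.748, adjusted p = 0.00499). Its RB arrays read 9.62, 9.49 and 9.94, above a control at 5.01, 5.62 and 5.18. Arrays with IC scattered between 4.76 and 7.51 for this gene and those with MV between 5.23 and 5.83, so the IC replicates varied most. ERF6 differed by 3.53 (standard error 0.516, adjusted p = 0.00363). ERF4, a repressor of ethylene-responsive genes, differed by 1.63, although it was called in only 3 of the 15 fits. ORA47, which activates jasmonate synthesis genes and is the 1 member of the list that the platform annotation names, differed by 1.47 (adjusted p = 0.00499). Of 23 loci on the list, DREB2A among them, 11 were measured, 6 were higher, 0 were lower and 10 were higher with the replicate block. The median over the 11 was 2.08, against 0.01 over all probe sets. All 11 except ORA47 were named through the study's tables of changed transcripts, so these medians do not compare like sets. ERF105 (2.2, adjusted p = 0.061) and ERF104 (2.08, adjusted p = 0.0631) were outside the threshold.

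**Figure D2:**
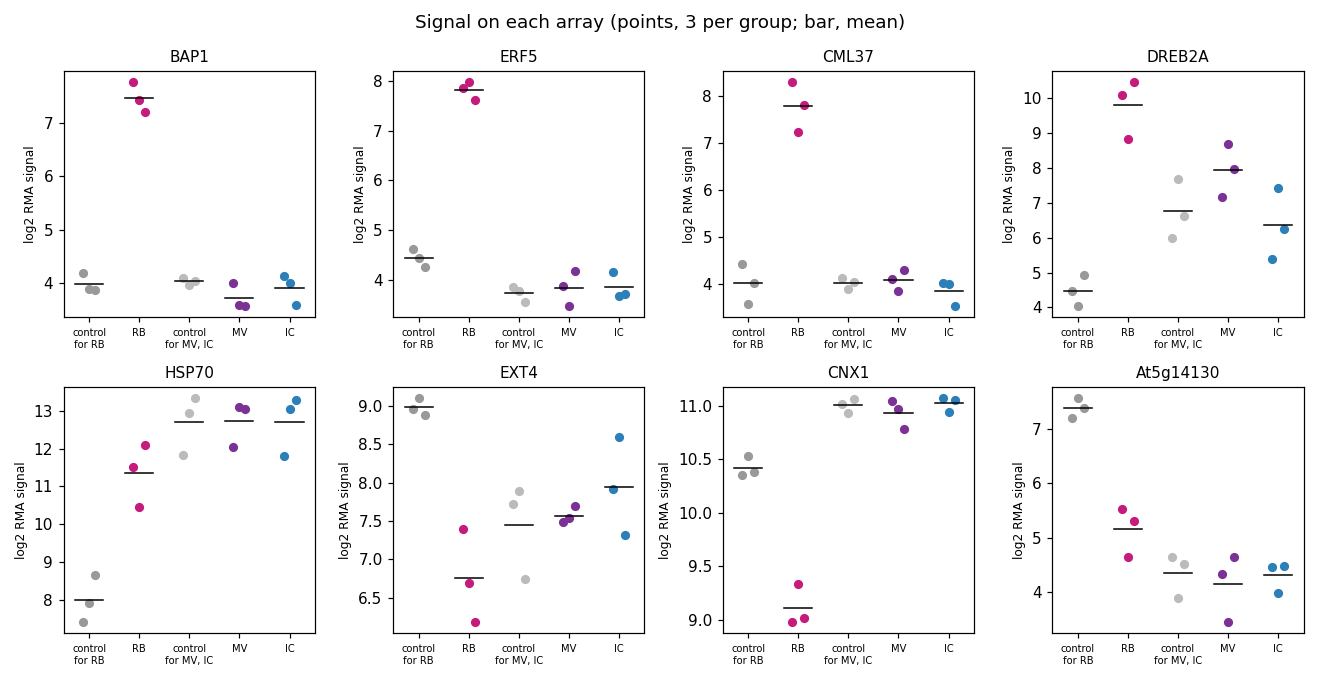
Log2 RMA signal (vertical axes, which do not start at 0) of 8 transcripts on each array, with 3 points per group and a bar for the mean. BAP1 and CML37 stand apart only in RB. ERF5 is highest in RB, with its control groups 0.71 apart. CNX1 and EXT4 are lowest in RB, and in DREB2A, HSP70 and At5g14130 the control groups lie far apart, by 2.28, 4.71 and 3.02.

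Calcium sensors and kinases that act early after a stimulus formed a further group. CML37, a calmodulin-like protein, measured 4.43, 3.58 and 4.03 in the control and 8.30, 7.24 and 7.80 with RB. The 9 arrays of the MV and IC set lay between 3.53 and 4.30, within or near the range of the control of RB. The difference was 3.82 (14.1-fold, standard error 0.435, adjusted p = 0.00102) with the 2 control groups at like levels. CML40 (At3g01830), a further calmodulin-like protein, differed by 3.81, but its RB arrays at 8.60, 5.95 and 6.93 were less even (standard error 0.683, adjusted p = 0.0148). Outside the list, and looked up after the values were seen, 3 more calls had an annotation as calmodulin-like or EF-hand proteins, with CML23 (3.00, adjusted p = 0.00442) and At1g21550 (2.14) higher and At1g53210 (-1.03) lower. In the list of 19 loci, 11 were measured, 2 were higher, 0 were lower and the median was 0.92. CML39 (-0.07) and CML43 (-0.12) had intervals within 1 on either side. OXI1, a protein kinase that is needed for full activation of MAP kinases by oxidative stress, measured 4.93, 4.66 and 4.81 in the control and 8.03, 6.96 and 7.45 with RB. All 9 arrays of the MV and IC set were between 4.08 and 4.59, and the difference was 2.77 (standard error 0.346, adjusted p = 0.0017). MKK9, a MAP kinase kinase, differed by 2.81 (adjusted p = 0.00487). All 6 measured members of the cascade were named through the study's tables of changed transcripts. Of these, OXI1 and MKK9 were called, and MPK3 (1.04, adjusted p = 0.473) and MKK4 (0.92, adjusted p = 0.117) were not. With the replicate block 4 of the 6 were higher.

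BAP1, a membrane-associated protein that restrains programmed cell death, had the smallest adjusted p of all. It measured 4.18, 3.89 and 3.88 in the control of RB and 7.77, 7.43 and 7.20 with RB. The second control ranged from 3.96 to 4.1, MV from 3.57 to 4.0 and IC from 3.59 to 4.14. The 3 RB arrays stood clear of the 12 others of the comparison, and the difference was 3.69 (12.9-fold, standard error 0.233, 95% interval 3.20 to 4.19, adjusted p = 1.41e-06). At1g72920 and At1g72940 both encode proteins with a TIR domain, the signalling domain of a class of immune receptors, and are separated by 1 gene on the chromosome. At1g72920 rose from 4.73, 4.36 and 4.42 to 7.81, 7.65 and 7.92 with RB, and its difference was 3.32 (adjusted p = 9.42e-05). At1g72940 differed by 2.57 (adjusted p = 0.000167). The probe set shared by the TIR-NBS-LRR receptor genes At5g41740 and At5g41750 differed by 1.88 (adjusted p = 0.00281). It and BAP1 were the 2 called of 12 measured members of the list of death regulators and immune receptors, whose median was 0.75, and with the replicate block 4 were higher. BI1, a suppressor of cell death in the endoplasmic reticulum, lay at -0.73 (adjusted p = 0.343) and was not called.

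Among the calls, 7 had an annotation that names a zinc finger but no RING domain, and all 7 were higher, a tally made after the values were seen that says nothing of zinc finger genes not called. ZAT6, a C2H2 zinc finger repressor, measured 7.38, 7.52 and 6.45 in the control and 10.37, 10.23 and 10.37 with RB, and the difference was 3.22 (standard error 0.432, adjusted p = 0.00257). ZAT12, a regulator of responses to oxidative stress, differed by 2.61 (adjusted p = 0.00953), and its RB arrays (10.98, 10.31 and 10.63) lay above the 12 others of the comparison, whose highest value was 8.41. Both belong to a list of 11 measured antioxidant enzymes and response factors with a median of 0.41, in which the other 9 were not called. These 9 ranged from -0.10 for 2CPA, a peroxiredoxin, over 0.41 for GR2, a glutathione reductase, to 1.52 for the glutaredoxin GRX480 (adjusted p = 0.407) and 1.71 for the zinc finger factor ZAT10 (adjusted p = 0.362). The list of ubiquitin ligases and exocyst subunits had 13 measured members. The platform annotation names 3 of them, with 1 higher, and the study's tables of changed transcripts name the others. Over the 13 the median was 1.51, 0 were lower and 6 were higher, against 0.448% of all probe sets. They were EXO70B1 (1.51, adjusted p = 0.0017), a subunit of the exocyst that tethers secretory vesicles, RDUF1 (2.18), RDUF2 (1.96) and ATL2 (1.47), which are RING ligases, and CMPG2 (2.1) and PUB24 (2.34), which are U-box ligases. ATL2 was called in 4 of the 15 fits. EXO70B1 was even between replicates, with 6.39, 6.42 and 6.44 in the control and 8.25, 7.78 and 7.96 with RB. CAF1A, a subunit of the complex that shortens mRNA tails, differed by 3.01 (adjusted p = 0.00847).

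**Figure D3:**
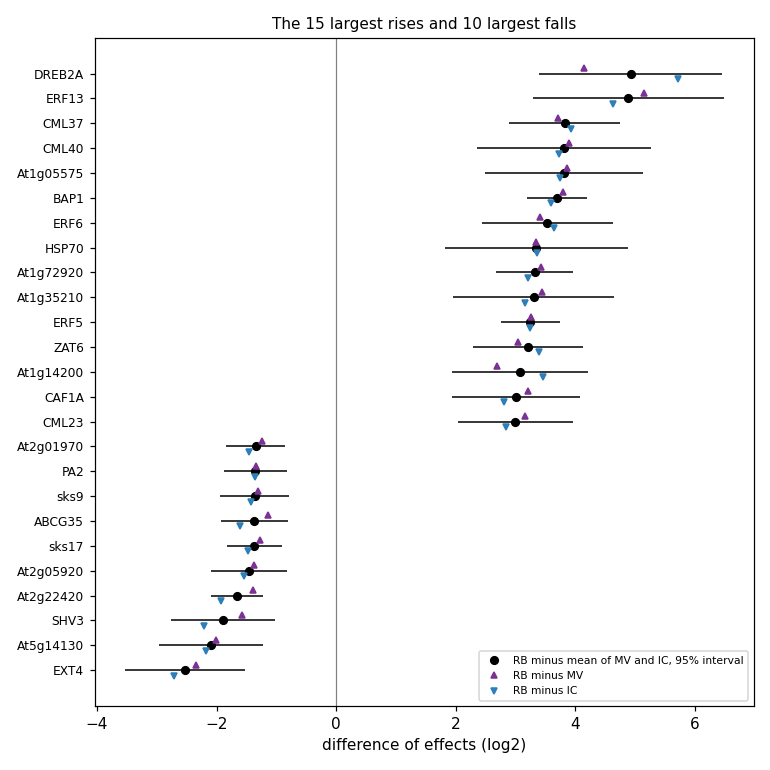
The 15 largest rises and the 10 largest falls among called probe sets of 1 gene, as the difference of effects on the log2 scale with its 95% interval (black), and the same difference against MV (upward triangle) or IC (downward triangle) alone. The choice of genes required the differences against either dye to lie on the same side of 0, and the widest intervals among the rises belong to ERF13, DREB2A and HSP70.

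Hormone-related transcripts were mostly represented by 1 or 2 calls. MYC2, the main transcription factor of jasmonate signalling, measured 7.40, 7.91 and 7.94 in the control and 10.03, 9.97 and 9.90 with RB, and differed by 2.75 (standard error 0.444, adjusted p = 0.00684). In the MV and IC set its control was higher, at 9.41, 9.05 and 9.0, and both dyes lay mostly below it, at 8.34, 8.59 and 8.16 with MV and 9.86, 8.68 and 8.10 with IC. The dyes' mean effect of -0.53 was the lowest of the 143 and adds to the difference. LOX4 (2.33, adjusted p = 0.0586) and AOS (1.51, adjusted p = 0.0562), enzymes of jasmonate synthesis, did not pass, and with the replicate block 4 of the 5 measured members of the list were higher. ACS6, which makes the ethylene precursor, differed by 2.35 (adjusted p = 0.0167), and NCED3, which catalyses the committed step of abscisic acid synthesis, by 1.52 (adjusted p = 0.0435, called in 4 of the 15 fits). Of the salicylic acid and EDS1 list, WRKY70 was called (1.62, adjusted p = 0.00738) with RB arrays at 6.38, 5.82 and 5.87 against 4.48, 4.25 and 4.19. PAD4 (2.01, adjusted p = 0.0773) was not, and EX1, a plastid protein that mediates 1O2 signalling, lay at 0.04 (95% interval -0.42 to 0.49). With the replicate block 4 of the 9 measured members were higher. WRKY70 and WRKY54 (1.1) were the 2 called of 12 measured members of the WRKY list, which does not hold the called WRKY4 described below. The platform annotation names 3 of the 12, none of them called. WRKY30 at 2.80 (adjusted p = 0.0974) was not called, and its 3 control arrays ranged from 3.49 to 5.64. With the replicate block 4 of the 12 were higher.

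Heat shock factors and chaperones had a median of 2.07, and all 23 measured members were positive, yet only HSP70 (At3g12580) and HSFA8 were called. The platform annotation names 9 of the 23, with a median of 2.21 and 0 called. In this list the control groups differed as much as the effects. HSP70 measured 7.40, 7.91 and 8.66 in the control of RB and 11.51, 10.45 and 12.09 with RB. In the other set it was high throughout, at 11.82, 12.95 and 13.33 in the control, 12.04, 13.09 and 13.06 with MV and 11.80, 13.04 and 13.27 with IC. The highest value of any probe set was 13.69, and whether this limited a rise with the dyes was not tested. The difference of effects was 3.35 (adjusted p = 0.0487, called in 3 of the 15 fits), whereas RB cultures compared directly with the dye cultures were lower by 1.36, a difference that did not pass (adjusted p = 0.0686). Over the 23 members the control of RB lay below the control of MV and IC in 22, with a median of -2.05, and 10 of the 23 passed that test. The dyes' own effect had a median of 0.07 over the list. With the replicate block 13 of the 23 were higher. Standard errors were large for small heat shock proteins, as in At1g54050 (4.23, standard error 1.23, adjusted p = 0.168), whose RB arrays ranged from 8.73 to 11.36 and the arrays of the second control from 8.11 to 10.77. HSFA8, a heat shock factor, had like levels in both controls (difference -0.08) and differed by 1.56 (adjusted p = 0.0446, called in 3 of the 15 fits).

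Several transcripts of the cell wall and cell surface were lower with RB. Of 12 measured members of that list 5 were lower, against 0.18% of all probe sets, 0 were higher and 7 were not called. All 12 were negative (11 after another quantile normalization), and the median was -0.81. The platform annotation names 4 of the 12, all expansins and none of them called. Over these 4 the median difference was -0.09 and the median RB effect 0.02. EXT4, an extensin, measured 8.97, 9.10 and 8.88 in the control of RB and 7.40, 6.69 and 6.18 with RB. It read 7.72, 7.89 and 6.75 in the other control, 7.48, 7.53 and 7.70 with MV and 7.91, 8.60 and 7.32 with IC. The RB arrays fell clear of their control while the dye arrays overlapped theirs, and the difference was -2.53 (standard error 0.473, 95% interval -3.54 to -1.52, adjusted p = 0.0204), with the control of RB 1.53 above the other. CESA1, a catalytic subunit of primary wall cellulose synthase, measured 7.19, 7.23 and 6.55 in the control and 5.89, 5.45 and 5.43 with RB, and the difference was -1.30 (adjusted p = 0.0261). CESA6, a partner subunit, differed by -0.96 (called in 5 of the 15 fits), while CESA3 at -0.61 (adjusted p = 0.119) did not pass. XTH24, which cuts and rejoins xyloglucan, differed by -1.0 (adjusted p = 0.00599), and SHV3, a glycosylphosphatidylinositol-anchored protein needed for wall organization, by -1.89 (adjusted p = 0.0491, called in 3 of the 15 fits).

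Further wall-related transcripts lay outside the list and were looked up by the wording of their annotation after their values had been seen. Class III peroxidases, which cross-link wall polymers, accounted for 3 of the lower calls and 0 of the higher ones, and peroxidases not called were not counted. At2g22420 fell from 7.71, 7.89 and 8.10 to 6.58, 6.10 and 6.31 with RB, with a difference of -1.66 (adjusted p = 0.0017), and PA2 differed by -1.35. At5g14130 differed by -2.09 (adjusted p = 0.0273), but the control of RB was at 7.20, 7.56 and 7.38 and the control of MV and IC at 4.64, 3.90 and 4.52. Directly, RB cultures were 0.93 above the dye cultures for it. Callose synthase GSL10 (-1.13), XEG113 (-1.01), an arabinosyltransferase of extensins, and POM1 (-0.92), a chitinase-like protein needed for cellulose deposition, were lower too, POM1 in 2 of the 15 fits. So were sks17 (-1.37) and sks9 (-1.36, 5 of the 15 fits), members of the SKU5 family of wall-associated proteins, and the subtilase At2g05920 (-1.46).

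Transcripts of the secretory pathway were also among the lower calls. CNX1, the calnexin chaperone of the endoplasmic reticulum, measured 10.36, 10.53 and 10.38 in its control and 8.98, 9.33 and 9.02 with RB. All 9 arrays of the other set lay between 10.78 and 11.07. The difference was -1.29 (2.44-fold, standard error 0.173, adjusted p = 0.00257), and the arrays of each group were even. Of 12 measured members of the list for folding in the endoplasmic reticulum, CNX1 was the 1 called (2 with the replicate block), 10 were negative, and the median was -0.69. CNX2 (-1.07, adjusted p = 0.0623) and PDIL1-1 (-0.91, adjusted p = 0.0974) did not pass. BZIP60, a transcription factor of the unfolded protein response, was at 0.09 (95% interval -0.52 to 0.69). Outside the list, all 4 calls annotated as endomembrane protein 70, a family of multispanning proteins of the endosomes and Golgi, were lower, namely At2g01970 (-1.35), At4g12650 (-1.25), EMP1 (-1.2) and At5g25100 (-0.95), the second and the last in only 3 of the 15 fits. This tally was made after the values were seen, and members of the family that were not called were not counted. At2g01970 measured 10.75, 10.75 and 10.34 in its control, 9.19, 9.38 and 8.90 with RB, and 10.40 to 11.07 in the other set. At2g21160, the alpha subunit of the translocon-associated complex, differed by -1.25 (adjusted p = 0.00319) and EBS5, a component of protein degradation from the endoplasmic reticulum, by -0.86.

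**Figure D4:**
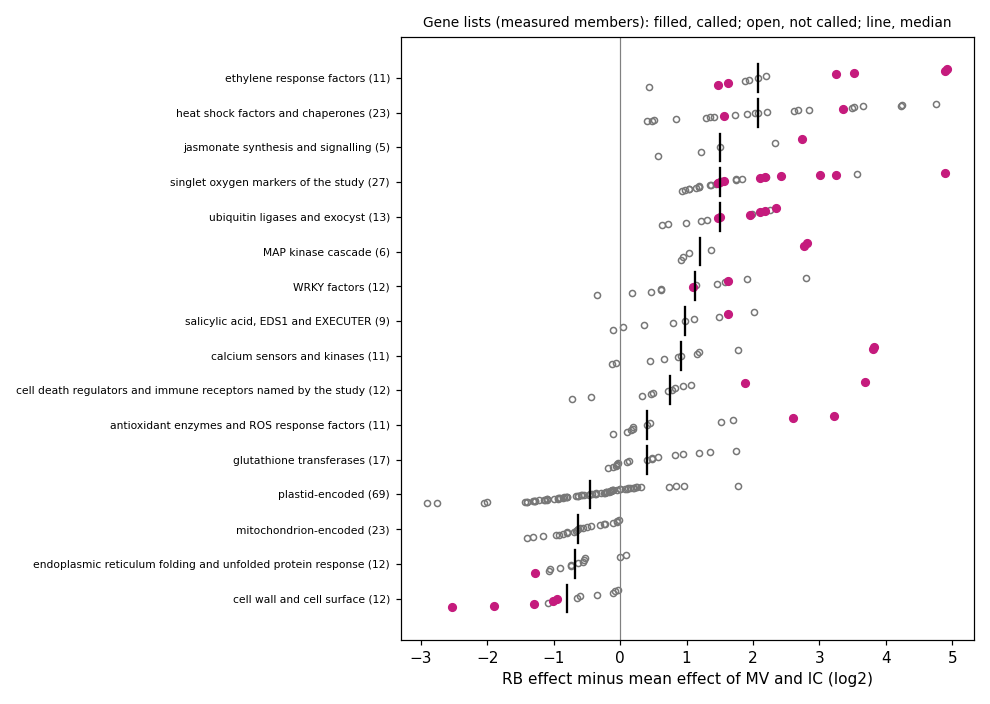
RB effect minus the mean effect of MV and IC (horizontal axis, log2) for each measured member of the gene lists with at least 5 of them, with called members filled, the others open and the median as a line. Ethylene response factors and heat shock transcripts have the highest medians, 2.08 and 2.07, and the wall and endoplasmic reticulum lists the lowest, -0.81 and -0.69.

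Several lists stayed without a call. None of 17 measured glutathione transferases, detoxifying enzymes that conjugate glutathione, was called, with a median of 0.40 and intervals within 1 on either side for 9 of them. At an unadjusted p under 0.05 limma gave 2 higher, as did the replicate block. GSTU5 (1.36, adjusted p = 0.435) again had its control of RB far below the other control, by 2.53. Nuclear-encoded photosynthesis transcripts were thinly covered, with 4 of 35 loci, and none was called by limma (median 0.22, 1 higher at an unadjusted p under 0.05). RCA, the activator of Rubisco, was at 0.36 (95% interval -0.28 to 1.01) and LHCB4.1, a light-harvesting protein, at 0.08 (95% interval -0.65 to 0.81). The 4 measured markers of cells with chloroplasts averaged between 7.41 and 8.55 on each of the 15 arrays, the 3 of root and root hair cells between 4.18 and 4.83, and the 1 of pollen between 3.59 and 4.40. Of the 69 plastid-encoded probe sets none was called either, but 55 were negative, 12 of them at an unadjusted p under 0.05 by limma, and the median was -0.46. The control of RB lay above the other control in 65 of these 69, by a median of 0.86, and RB compared directly with the dyes gave 0.48, of the opposite sign. All 23 mitochondrion-encoded probe sets were negative (22 after another quantile normalization) with a median of -0.64 and none called (4 lower at an unadjusted p under 0.05 by limma), and there the control of RB was higher by a median of 0.57. For the reference transcripts the differences were 0.23 for TIP41 (95% interval -0.08 to 0.53) and -0.10 for GAPC2 (95% interval -0.44 to 0.23).

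Of 27 published 1O2 markers that the study picked out because they responded to RB on these same arrays, 10 were higher, 0 lower and 17 not called, and all 27 were positive, with a median of 1.51. The RB response is a term of the difference, so the count is a description. With the replicate block 19 of the 27 were higher. GolS1 (1.84, adjusted p = 0.606) and SAG101 (0.98, adjusted p = 0.277) were among those not called.

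The 3 pairs of photosensitizers at the same dose were compared separately, with p-values adjusted over the 3 pairs together. RB gave 69 probe sets against MV and 91 against IC, and MV gave 1 against IC. Adjusted within each pair, the counts were 85 (0.374%), 140 (0.615%) and 0, the last with 448 at an unadjusted p under 0.05 by limma. Those 448 are fewer than that threshold would give on average if no probe set changed. BAP1 differed by 3.79 from MV (95% interval 3.26 to 4.32, adjusted p = 7.72e-06 over the 3 pairs) and by 3.60 from IC (95% interval 3.07 to 4.13, adjusted p = 8.06e-06). CNX1 differed by -1.24 from MV (adjusted p = 0.00959) and by -1.33 from IC (adjusted p = 0.00578). HSP70, at 3.33 and 3.36, passed against neither (adjusted p = 0.122 and 0.118). Between MV and IC themselves the interval of the difference was -0.56 to 0.19 for BAP1, -0.47 to 0.93 for CML37, -0.37 to 0.19 for CNX1 and -1.72 to 0.68 for ERF13, which does not show that these dyes act alike. It excluded 0 without passing the adjustment for DREB2A, at 1.57 (95% interval 0.42 to 2.73). For 125 of the 143 calls the interval of MV minus IC lay within 1 on either side. The 1 probe set that passed between MV and IC, 257610_at, has no gene name here, with a difference of 0.67 (95% interval 0.39 to 0.95). It passed only with limma p-values adjusted over the 3 pairs together (adjusted p = 0.049), not within the pair (adjusted p = 0.9998).

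The 6 arrays of MV and IC against their 3 controls gave 0 calls by limma, with 521 probe sets at an unadjusted p under 0.05 and 872 with the replicate block, which gave 0 calls too. Both counts are below what a threshold of 0.05 would give on average over 22746 probe sets without any change. For 96.1% of all probe sets the 95% interval of the dyes' mean effect lay within 1 on either side, and no estimate exceeded 1.55 in size. The 3 smallest p-values among rises belonged to At4g17140 (0.40), At5g11680 (0.41) and At2g02590 (0.44), and those among falls to At5g67630 (-0.45), At1g01440 (-0.52) and At2g42300 (-0.41). None of the 6 was called in the difference from RB.

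WRKY4 and RLP29 were the 2 calls whose RB effect alone was not called. WRKY4, a transcription factor of defence against necrotrophic fungi, measured 5.36, 5.06 and 5.37 in the control of RB and 5.6, 5.82 and 5.69 with RB. With the dyes it read between 4.94 and 5.35, below their control at 5.65, 5.39 and 5.36. The RB effect of 0.44 and the dyes' effect of -0.38 add to a difference of 0.82 (adjusted p = 0.0446, called in 2 of the 15 fits). RLP29, a receptor-like protein, ran the other way, with an RB effect of -0.53, a dyes' effect of 0.45 and a difference of -0.98 (adjusted p = 0.0346, called in 4 of the 15 fits).

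A direct comparison of RB with the dyes equals the difference of effects plus the difference between the control groups. Its sign can turn only where the control groups differ by more than the effects do. This was so in 7 of the 143 calls, where RB and the dyes compared directly had the opposite sign. Besides HSP70 and At5g14130 these were At2g27580 (called in 3 of the 15 fits), XTH30 (called in 4), At5g12150, SAG29 and MLP-300B. MLP-300B, a lectin-like protein, fell from 6.79, 6.48 and 6.70 to 5.26, 5.35 and 5.03 with RB, a difference of -1.26 (adjusted p = 0.00261). It read between 3.49 and 4.09 on every array of the other set, so that RB cultures were higher by 1.42 in the direct comparison. Which of the control groups is typical of untreated ACSC was not tested. Direct comparison of RB with the dyes gave 3134 probe sets (13.8%), which include the difference between the sets of cultures.

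**Figure D5:**
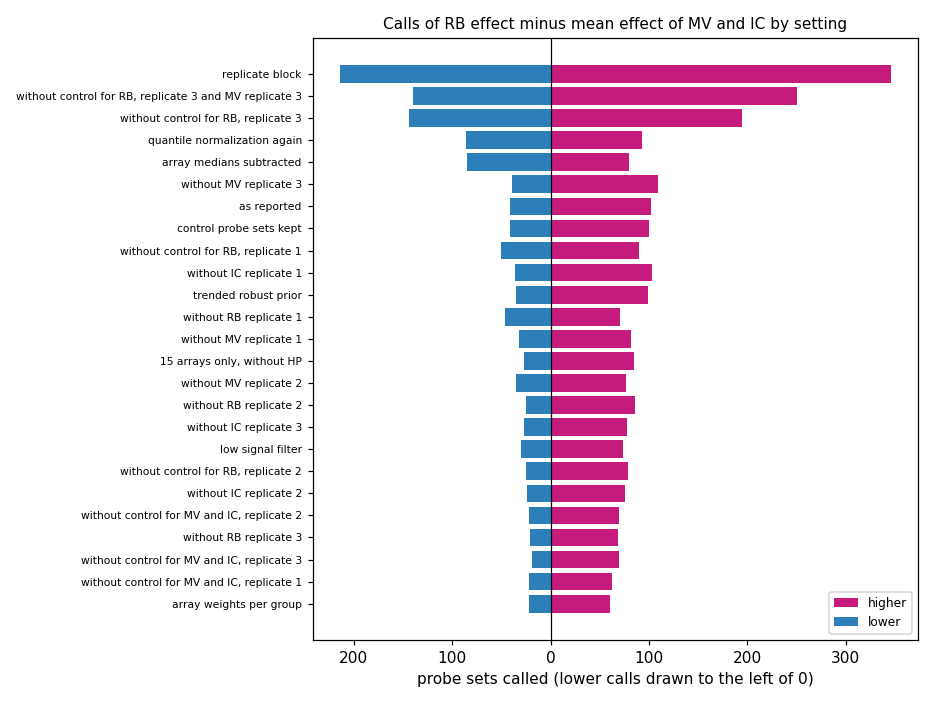
Probe sets called higher (right of 0) and lower (left of 0) for RB effect minus the mean effect of MV and IC, for each way of fitting or of leaving out arrays. The count runs from 82 with array weights per group to 560 with the replicate block, and leaving out the third control array of RB gives 339.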

How the data were processed

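Total RNA of 18 cultures was hybridized to ATH1 arrays. The deposited log2 signals are the authors' RMA values (background correction, quantile normalization, summarization per probe set). In the submitters' processing notes affy and RMA appear with no version. Whether all arrays were normalized in 1 run is not given in the sources used here. RMA assumes like distributions on all arrays, which can mask a general shift. Array values have no read depth, and the number of arrays limits the precision.

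All 18 arrays were fitted as 6 groups with limma 3.58.1 (lmFit, contrasts.fit, eBayes) in R 4.3.3, which left 12 residual degrees of freedom, with 3.37 more from the prior. The 64 AFFX probe sets were left out and p-values, all two-sided, were adjusted over 22746. The labels call the arrays biological replicates without naming separate cultures, so p-values measure the spread between these arrays. Each control array names the treated arrays of its number. Deviations from the group means of arrays sharing a number correlated between -0.333 and 0.634 (control and MV), 0.216 and 0.543 (control and IC), 0.158 and 0.584 (MV and IC) and 0.000948 and 0.449 (control and RB). Control and RB and control and MV were below 0.1 in replicate 3, and all the other correlations were positive. The study names no block, so the block was used as an alternative. Its count for the RB effect alone lay nearer to the study's than the count without it. The fit was tested on simulated data. Alternatives were the block, other scalings, a filter on low signals, array weights per group, a trended robust prior and the removal of single arrays.

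Members and gene lists were chosen with earlier results of these data known. Genes were named by a rule, namely the 15 largest rises and 10 largest falls among calls of 1 gene that kept their sign against either dye and without any 1 array, up to 6 members of each list with the smallest p, calls without an RB effect of their own and the 3 smallest p of each sign for the dyes. Others, such as CML23, peroxidases, the endomembrane protein 70 family and calls not on a list, were chosen after their values were seen. Of several probe sets for 1 gene, the brightest on average stood for it in a list. The platform annotation lists 14016 probe sets, the study's tables named 895 more, and 7835 had no locus. The fold changes and p-values in the study's tables were not used. Promoter and protein sequences were not analysed here. Plots used matplotlib 3.10.9 under Python 3.11.15.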

Additional observations from a re-analysis of the deposited data

Results flagged for a closer look

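The RB effect differed from the mean effect of the weaker dyes in 143 probe sets, from that of MV in 85 and from that of IC in 140, in each case by a test of the difference of effects itself. Adjusted within their own pair, MV and IC differed in 0 probe sets. With p-values adjusted over the 3 pairs of dyes together, which brings in the small p-values of the RB pairs, 1 passed. The H2O2 arrays, which were outside the comparison, differed from the control that they share with RB in 185 probe sets (0.813%). Side by side, the effect of H2O2 was 3.37 for ATAF1, 3.16 for NAC102 and 1.96 for OXI1, against RB effects of 2.67, 2.26 and 2.68, while BAP1 (0.31), ERF5 (0.56) and At1g72920 (0.08) were not called with H2O2, against RB effects of 3.48, 3.36 and 3.29. Whether H2O2 and RB differ in these transcripts was not tested here. Groups of 3 arrays are too small to look for single outlying arrays.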

How the results depend on the processing

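The 143 calls became 560 with the replicate block, 82 with array weights per group and 3134 (1514 higher, 1620 lower) with RB set directly against the dyes. Those over 1 in size, 126, became 360, 79 and 1142. Against MV the 85 became 305 with the block and 41 with weights, and against IC the 140 became 554, 84 and, adjusted over the 3 pairs, 91. MV minus IC went from 0 to 1 with that adjustment. The RB effect alone went from 673 to 1649 and 226, and the control groups from 1698 to 3410 and 541. Without 1 array the ranges were 84 to 339 for the difference, 81 to 234 over 1, 44 to 138 against MV, 63 to 302 against IC, 384 to 1395 for RB alone and 386 to 3724 between the controls, with 0 throughout for MV minus IC and for the dyes. The difference moved most without control 1, 2 or 3 of MV and IC (84, 92 and 89), RB replicate 3 (90) and control 3 of RB (339), and without that control and MV replicate 3, a choice made after seeing the data, it was 390 (252 over 1, 624 against IC, 1993 for RB alone and 4299 between the controls). The share of higher calls was 71.3% as reported, 48.5% with array medians subtracted, which shifted the median of all probe sets to -0.13, and 52.0% after another quantile normalization. The filter on low signals, which moved it to 0.11, gave 104 calls. In the direct comparison At5g14130 was at 0.93, At5g67630 at -0.45 and HSP70 at -1.36. The cause of these changes was not tested. With 3 arrays a group, 71 of the 143 calls held in each of the 15 fits without 1 array.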

Other observations

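Called transcripts of other groups included VQ-motif proteins, cofactors of WRKY factors. SIB1 differed by 2.68 (adjusted p = 0.0494, called in 3 of the 15 fits without 1 array), At1g78410 by 2.67 (adjusted p = 0.0235) and SIB2 by 1.73 (adjusted p = 0.0128). The neighbouring acetyltransferase-like genes At2g32030 and At2g32020 differed by 2.78 and 2.18. MYB77 (2.29), MYB51 (1.99, called in 2 of the 15 fits) and MYB108 (1.47) were the 3 calls annotated as MYB factors, and ATAF1 (2.88), NAC102 (2.07) and NAC061 (1.48, called in 4) the 3 NAC factors. AGO3, an Argonaute protein of small RNA pathways, differed by 2.18, and UCP5, a carrier of the inner mitochondrial membrane, by 2.01.

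Among the lower calls were the transporters ABCG35 (-1.37) and ABCC4 (-1.14), the fatty acid desaturase ADS2 (-1.02) and the aquaporin SIP2;1 (-0.85, called in 5 of the 15 fits). Of the 143 calls, 18 were annotated as proteins of unknown function, 17 of them higher, among them At1g05575 (3.80, adjusted p = 0.00732) and At1g35210 (3.30, adjusted p = 0.0246). Of all 143 calls 71.3% were higher, and such tallies by annotation, made after the values were seen, say nothing of genes not called.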
